A study of Mus musculus with 13 samples.

Results

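The genes of the mitochondrial respiratory chain were read in 13 RNA-seq libraries of C57BL/6 mice, from embryonic fibroblasts through their small-molecule treatment to cells meant to match the corneal endothelium. The set holds the protein-coding genes whose symbols start with Nduf, Sdh (a to d), Uqcr, Cox4 to Cox8 or Atp5, and the 13 protein-coding genes of the mitochondrial genome. It came to 107 genes of 54232 Ensembl IDs in the table, 94 in the nucleus and 13 in the mitochondrial genome. Of these, 51 belong to complex I, 4 to complex II, 9 to complex III, 23 to complex IV and 20 to complex V.

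The starting cells were mouse embryonic fibroblasts (MEFs) of stage E13.5 (D0, 3 libraries). Cells of day 7 (D7, 3 libraries) and day 12 (D12, 2 libraries) of the treatment carry the label of chemically induced neural crest cells. The groups P1 and P8, named chemically induced corneal endothelial cells, gave 2 libraries each, and primary corneal endothelial cells of postnatal day 30 (pCEC) gave 1. The labels name neither the small molecules nor the meaning of P1 and P8, and do not say whether replicates came from separate cultures, so p-values reflect a spread among libraries that could be technical.

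The respiratory chain passes electrons from NADH (complex I) and succinate (complex II) through ubiquinone, complex III and cytochrome c to oxygen at complex IV, and complexes I, III and IV pump protons as electrons pass. Complex V, the ATP synthase, uses the proton gradient to make ATP. Most subunits are encoded in the nucleus and imported, but a few at the centre of complexes I, III, IV and V come from the mitochondrial genome, whose genes are transcribed together from both strands. Corneal endothelium is known for its many mitochondria, which supply the ATP for ion pumping out of the stroma.

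Levels are FPKM, reads scaled to transcript length and to the size of the library, which allows genes of different length to be set side by side. The reads per library, recovered from the FPKM steps, ran from 9997865 (P1 replicate 2) to 24030674 (D0 replicate 2). Gene IDs in the deposited table match the D0 values only, so the gene of each value in other groups was inferred. All members were placed except Ndufa11 in D7 and Ndufa2 in pCEC, and those 2 genes were left out of the tests. The labels and the markers disagreed in places. Summed FPKM of 7 fibroblast markers was 22150 to 23070 in D0, 3310 to 3327 in D7, 1891 to 2057 in D12, 472.1 and 1094 in P1, and 29.16 in pCEC. P8 replicate 2 had 4072 for that sum and 908.9 for 9 macrophage markers, against 67.2 and 57.63 in P8 replicate 1, where Cd68 made up 57.46 of the latter and the defining markers C1qa, C1qb, C1qc and Lyz2 were at 0. The sum of 6 epithelial markers was 6861 to 9001 in P1 and P8 replicate 1, but 23.42 in P8 replicate 2. It was 2859 in pCEC, where all 6 were at 188 FPKM or more. Of the keratocyte list, Aldh3a1 was at 1642 there, while the other 3 markers, Kera, Lum and Ptgds, were at 0. Values for P8 are therefore given library by library. The limma fit still held both as 1 group, and their difference enters the spread behind every p-value. Of the corneal endothelial markers, Col8a2 was at 0.0619 FPKM in pCEC and at most 0.3 in P1, and Aqp1 was at 0.184 in pCEC. The neural crest marker Sox10 was at most 0.48 in D7 and D12, while Twist1 was at 879.8 or more there.

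Summed over the 94 nuclear genes, FPKM was 6488 to 7578 in the 3 D0 libraries and 15320 to 16110 in D7, and stood at 14000 and 18440 in D12. The sum was 7262 and 9408 for P1, 10730 and 6096 for P8 and 8353 for pCEC. D7 and D12 were thus the high groups, and every other library lay below them. As a share of all FPKM, the nuclear genes took 1.15% ± 0.055 (SD, n = 3) in D0, 2.09% ± 0.0479 (n = 3) in D7, 2.16% ± 0.292 (n = 2) in D12, and for P1 1.17% ± 0.0877 (n = 2). The 13 mitochondrial genes took 2.52% ± 0.0724 in D0, 5.64% ± 0.0903 in D7, 4.85% ± 0.294 in D12, and for P1 2.25% ± 0.377. In bulk RNA, fewer cells of a type and less RNA per cell cannot be told apart.

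**Figure D1:**
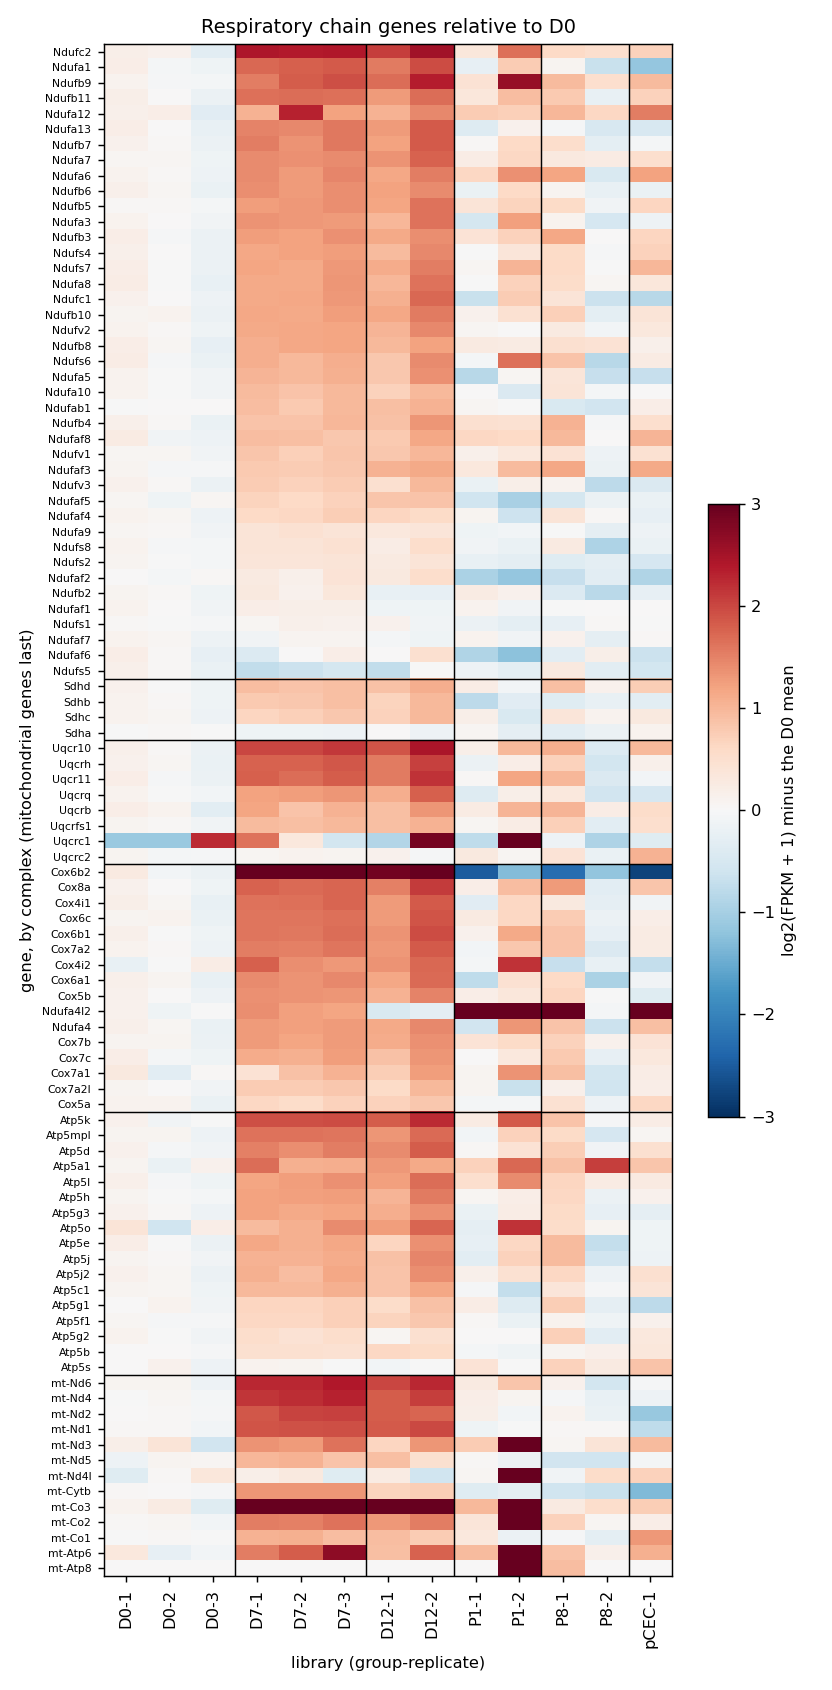
Respiratory chain genes in each library: each row is 1 of the 99 genes tested, ordered by complex with the mitochondrial genes last, each column is 1 library, and colour is log2(FPKM + 1) minus the D0 mean of the gene (red higher, blue lower, limited to 3 either way). Most rows are red in D7 and D12 and pale in P1, P8 and pCEC, while Sdha, Ndufs1 and Uqcrc2 stay pale in D7 and D12.

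The comparison of D7 with D0 asks which members differ between fibroblasts and cells of treatment day 7. Calls needed at least a 2-fold difference and an adjusted p (Benjamini-Hochberg) under 0.05 (limma on log2(FPKM + 1), adjusted over 17406 genes). Of the 107 genes, 99 passed the filter of 1 FPKM in at least 1 library and were resolved. In D7, 55 of these 99 rose (55.6%) and 0 fell, whereas 11.4% of all genes tested were called higher and 10.9% lower. By the adjusted p alone 74 rose, where 21% of all genes did. Every D7 library lay above every D0 library for 90 of the 99, against 37.6% of all genes tested. The median log2 fold change was 1.15 over the nuclear members tested and 0.00 over all genes.

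Members are short transcripts, and short transcripts outside the list were also higher in D7. Among genes with a mean of at least 10 FPKM, 466 others under 700 nt had a median log2 fold change of 1.01 against 1.35 for 34 nuclear members. From 700 to under 1200 nt the medians were 0.43 (1893 other genes) and 0.90 (34 members), and from 1200 to under 2000 nt they were 0.02 (2947 others) and 0.92 (8 members). In every one of these 3 classes the members' median was the higher. With each library's trend on transcript length removed, an alternative chosen after seeing the data, 30 members were called (29 higher and 1 lower), 28 of them among the 55, where 20.7% of all genes were called in either direction, and the nuclear median was 0.68. The contrast with all genes was thus smaller than in the deposited values. The summed macrophage markers were at 1169 to 1243 FPKM in D0 and at 8.38 to 13.16 in D7, with 8 of 9 under 1 FPKM in each D7 library, and the fibroblast sum was lower in D7 as given above. The part of these markers in the rise was not tested.

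**Figure D2:**
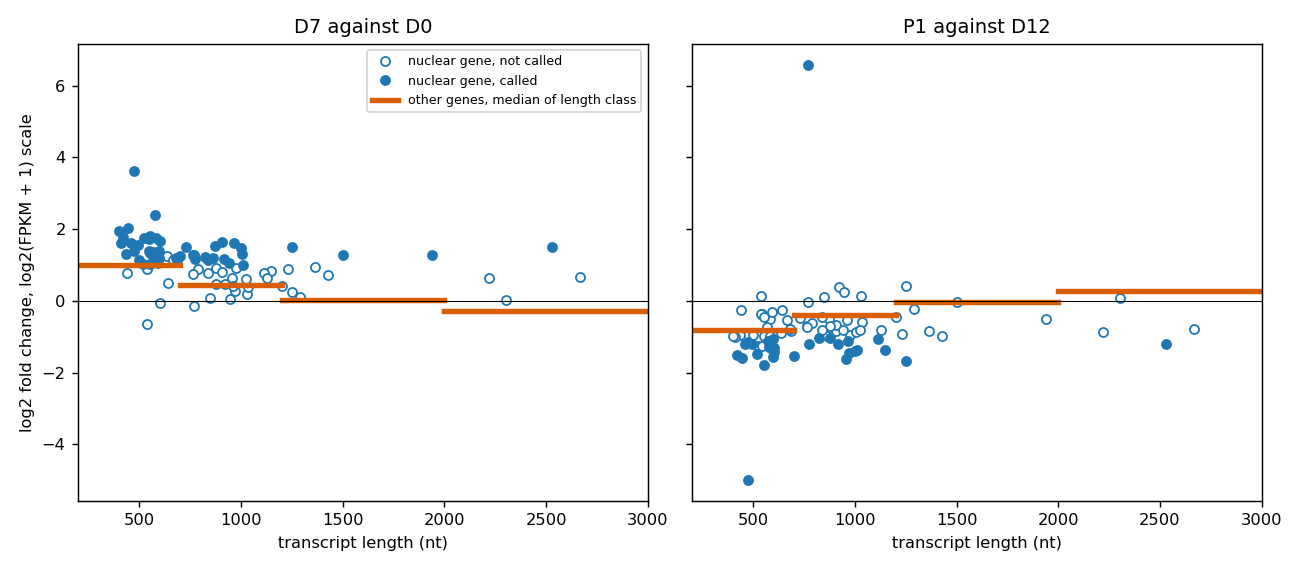
Log2 fold change against transcript length for the nuclear members tested, in D7 against D0 (left) and P1 against D12 (right); filled points passed the test, open points did not, and bars are the median of other genes with a mean of at least 10 FPKM in each length class. Bars fall from 1.01 to -0.28 with length on the left and rise from -0.81 to 0.27 on the right, and most points lie beyond the bar of their class.

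The accessory subunits of complex I, which surround the catalytic core, were the largest class of nuclear members by role. Of 27 tested, 19 rose in D7 (70.4%), with a median log2 fold change of 1.21. That share was below those of the complex III accessory subunits (100%) and the complex IV common subunits (81.8%). Counts by role, here and below, take no account of transcript length. Ndufc2, a membrane-arm subunit, was at 34.15, 32.67 and 23.93 FPKM in D0, 165.2, 160 and 163.2 in D7, 128.1 and 176.3 in D12, 38.21 and 96.55 for P1, 45.68 and 42.61 for P8 and 49.28 for pCEC. It was the nuclear member with the largest rise after Cox6b2, by 2.41 ± 0.30 (SE; limma, adjusted p = 0.000301) in D7. Ndufa1, a small membrane-arm subunit needed for assembly, rose from 52.37 to 65.44 FPKM in D0 to 192.1 to 206.3 in D7, a log2 fold change of 1.79 ± 0.27 (adjusted p = 0.00101). Ndufb9 rose from 5.26 to 6.01 FPKM to 17.97 to 23.89 (1.76 ± 0.46, adjusted p = 0.0146).

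The nuclear core subunits hold the flavin and the iron-sulfur clusters. Of 6 tested, Ndufs7 (1.21 ± 0.26, adjusted p = 0.00594) and Ndufv2 (1.15 ± 0.14, adjusted p = 0.000234) rose, and the median was 0.60. Ndufs1, the largest subunit of complex I, was at 54.42 to 57.34 FPKM in D0 and 57.6 to 61.76 in D7, and did not pass the test (adjusted p = 0.465). Ndufs3 was listed at 0 in 12 of 13 libraries and at 0.0747 FPKM in the other. Of the 8 assembly factors named Ndufaf, 0 were called (3 had an adjusted p under 0.05), with values between -0.07 for Ndufaf6 and 0.88 for Ndufaf8. Ndufs5 was singled out after its values were seen: it was at 55.29 to 70.4 FPKM in D0 and at 37.26 to 43.42 in D7, a log2 difference of -0.64 ± 0.22 (adjusted p = 0.0403) that is under the 2-fold limit. All 3 of its D7 libraries lay below all 3 of D0, and 21.7% of its 50-base words also occur in transcripts of other genes.

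Complex II is wholly nuclear and also an enzyme of the TCA cycle, and 0 of its 4 subunits were called. Sdhb, Sdhc and Sdhd, the iron-sulfur subunit and both membrane anchors, had log2 fold changes of 0.83, 0.72 and 0.90 in D7 with adjusted p of 0.00176, 0.00982 and 0.00488, so they rose by less than 2-fold. Sdhb was at 72, 68.01 and 60.68 FPKM in D0, 115.7, 117.4 and 126.2 in D7, 106.5 and 133 in D12, 38.4 and 52.8 for P1, 51.43 and 56.9 for P8 and 53.2 for pCEC. Sdhc was at 60.4 to 73.22 FPKM in D0 and 105.9 to 118.6 in D7, and Sdhd at 54.58 to 64.74 and 109 to 113.7. Sdha, the flavoprotein subunit, was at 284.2, 292.2 and 282.3 FPKM in D0 and 262.5, 260.1 and 258.7 in D7. It then stood at 289.2 and 257.6 in D12, 298.3 and 237.4 for P1, 231.4 and 251.2 for P8 and 307.2 for pCEC. Its D7 libraries were the lower by a small margin that did not pass the test (-0.14 ± 0.11, adjusted p = 0.368).

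Complex III hands electrons from ubiquinol to cytochrome c. All 5 of its accessory subunits rose in D7 and 0 of its 3 nuclear core members did. The accessory genes are 444 to 701 nt long and the core genes 847 to 1363 nt, so role and length cannot be told apart here. Uqcr10 was at 110.1, 101.9 and 87.41 FPKM in D0 and 401.1, 404.4 and 434.4 in D7 (log2 fold change 2.04 ± 0.36, adjusted p = 0.00201). Uqcrh, the hinge protein that contacts cytochrome c1, was at 142.2, 134.1 and 113 FPKM in D0 and 442.1, 443.9 and 471.1 in D7 (1.80 ± 0.29, adjusted p = 0.00121). The core protein Uqcrc2 was at 111.2 to 121.8 FPKM in D0 and 119.5 to 124.1 in D7 (adjusted p = 0.728). The Rieske iron-sulfur protein gene Uqcrfs1 had a log2 fold change of 0.94 (adjusted p = 0.00792), just under the 2-fold limit. Uqcrc1 could not be read: it lay between 1.98 and 72.25 FPKM over the libraries and at 1.98, 1.99 and 29.6 within D0.

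Complex IV, cytochrome c oxidase, has common subunits and, for some, a second isoform known from muscle, lung or testis. Of 11 common subunits 9 rose in D7. Cox4i1, the regulatory subunit, was at 202.4, 187.3 and 154.9 FPKM in D0, 559.2, 566.7 and 608.7 in D7, 440.4 and 649.7 in D12, 141.3 and 279.2 for P1, 221.7 and 148.9 for P8 and 167.2 for pCEC. The groups D0 and D7 did not overlap (1.67 ± 0.27, adjusted p = 0.00128). Cox8a rose by 1.74 ± 0.37 (adjusted p = 0.00551) from 216.3 to 259.6 FPKM in D0, and Cox6a1 by 1.401 ± 0.41 (adjusted p = 0.0227) from 315.2 to 404.9 FPKM. The D7 libraries were at 770.5 to 813.5 FPKM for Cox8a and 932.4 to 1003 for Cox6a1. Cox7a2 and Cox7b rose by 1.55 ± 0.33 (adjusted p = 0.00555) and 1.24 ± 0.16 (adjusted p = 0.000325), while Ndufa4, now counted with complex IV, had 1.26 ± 0.48 and an adjusted p of 0.0625. Ndufa4 was at 127.2 to 161.6 FPKM in D0, 343 to 357 in D7, 321.7 and 400.4 in D12, 98.67 and 366.5 for P1, 265.3 and 93.38 for P8 and 275.5 for pCEC, so its P1 and P8 pairs were wide apart.

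Cox6b2, known as the testis isoform of the subunit that joins cytochrome c oxidase dimers, had the largest rise of any nuclear member. It was at 40.14, 31.34 and 29.02 FPKM in D0, 413.1, 399 and 436.8 in D7, 251.2 and 339 in D12, 5.04 and 12.87 for P1, 5.99 and 14.11 for P8 and 3.97 for pCEC. D7 and D12 were far above every other library, and P1, P8 and pCEC were below all of D0. The log2 fold change was 3.61 ± 0.35 (adjusted p = 7.17e-05) in D7 and 3.10 ± 0.39 (adjusted p = 0.000397) in D12. From D12 to P1 it fell by 4.999 ± 0.42 (adjusted p = 5.1e-05), and P1 was below D0 by a log2 difference of -1.90 ± 0.39 (adjusted p = 0.00783). Its common partner Cox6b1 was at 179.4 to 219.3 FPKM in D0 and 590.9 to 633.6 in D7. Of the summed FPKM of both genes, Cox6b2 held 13.74 to 15.47% in D0, 40.3 to 40.81% in D7, 30.68 and 33.07% in D12, 2.27 and 2.86% for P1 and 1.66% in pCEC.

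Ndufa4l2, a paralog of Ndufa4 known to be induced by hypoxia, was at 1.7, 1.25 and 1.42 FPKM in D0, 5.48, 4.79 and 4.52 in D7, 0.775 and 1 in D12, 414.9 and 77.75 for P1, 733.6 and 1.35 for P8 and 33.56 for pCEC. The P1 libraries and P8 replicate 1 were high, and P8 replicate 2 stood at the level of D0. P1 was above D12 by 6.59 ± 2.04 on the log2 scale (adjusted p = 0.0294) and above D0 by 6.21 ± 1.86 (adjusted p = 0.0348). Under voom on recovered reads the adjusted p was 0.255 and 0.19, without P1 replicate 1 it was 0.148 and 0.156, and over all settings tried it ranged from 3.59e-05 to 0.255 and from 3.22e-05 to 0.19. In P1 replicate 1 and P8 replicate 1 it made up 80.79 and 73.44% of the summed FPKM of Ndufa4l2 and Ndufa4, but 17.5% in P1 replicate 2.

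Cox4i2, the lung isoform of subunit 4, was at 0.5 to 1.05 FPKM in D0, 3.32 to 5.11 in D7, 3.42 and 4.74 in D12, 0.667 and 6.85 for P1, 0.0828 and 0.495 for P8 and 0.0661 for pCEC. It rose in D7 (1.504 ± 0.48, adjusted p = 0.0326) and in D12 (1.53 ± 0.54, adjusted p = 0.0498), and made up at most 2.395% of its sum with Cox4i1. Cox7a1, the heart and muscle isoform, stayed between 0.412 and 4.33 FPKM, beside 63.71 FPKM or more for Cox7a2. The muscle isoform Cox6a2 was at 0.92 FPKM or less, and Cox7b2, Cox8b and Cox8c were at 0.197 FPKM or less in every library. The 6 skeletal muscle markers summed to 21.12 to 23.5 FPKM in D0, 3.70 to 5.27 in D7, 1.87 and 2.11 in D12, 2.12 and 72.47 for P1, 2.98 and 34.55 for P8 and 3.81 for pCEC. Acta1 made up most of the higher sums, at 18.65 to 21.23 FPKM in D0, 71.69 in P1 replicate 2 and 34.06 in P8 replicate 2, and the defining markers Ckm and Myog were at 0.184 FPKM or less throughout.

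**Figure D3:**
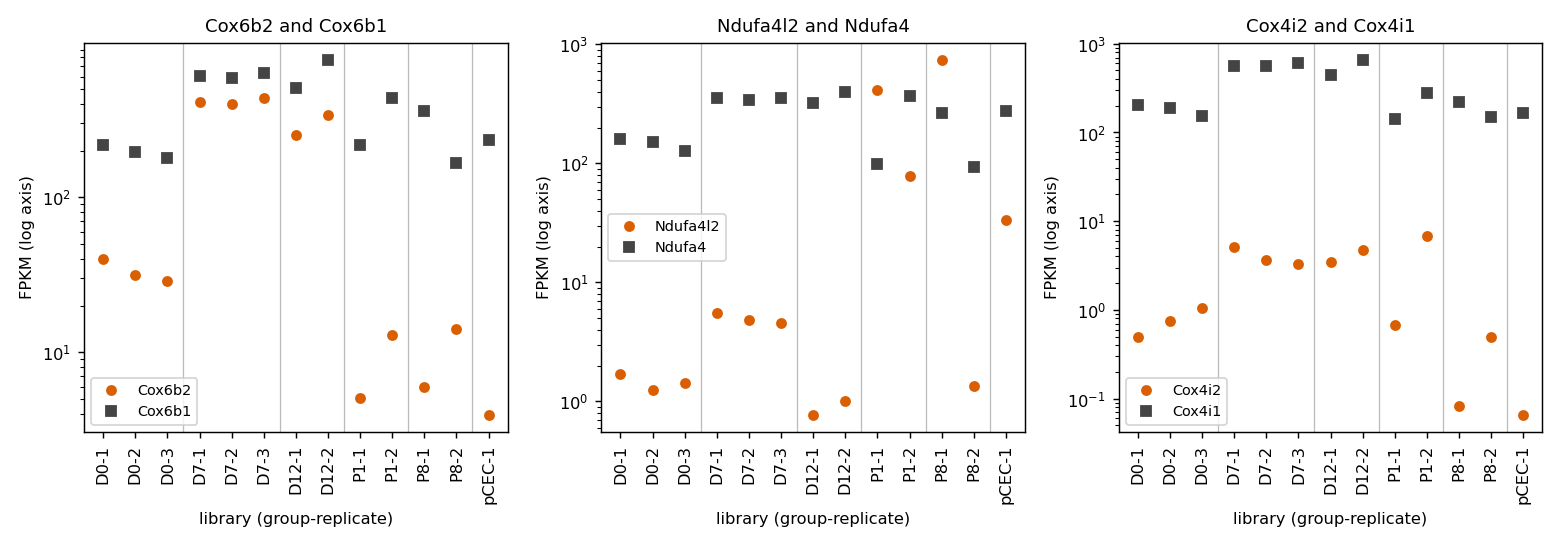
FPKM (log axis) of 3 isoforms (orange circles) and their common partners (dark squares) in each library. Cox6b2 stood at 399 to 436.8 in D7 and at 14.11 or less in P1, P8 and pCEC, Ndufa4l2 exceeded Ndufa4 only in P1 replicate 1 and P8 replicate 1, and Cox4i2 stayed at 6.85 or less.

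Complex V is made of the F1 head, the c ring, and the stalk and membrane parts that join them. Of 5 F1 genes 4 rose in D7, as did 6 of 8 stalk and membrane genes tested and 1 of 3 c ring genes. Atp5k, the e subunit, which helps ATP synthase form dimers, was at 28.53, 24.33 and 25.93 FPKM in D0 and 102.7, 103.5 and 105.5 in D7 (1.95 ± 0.37, adjusted p = 0.00316). The 3 genes of subunit c encode the same mature protein. Atp5g3 rose in D7 (1.18 ± 0.21, adjusted p = 0.00224), while Atp5g1 (0.67, adjusted p = 0.0605) and Atp5g2 (0.50, adjusted p = 0.12) did not pass the test. Atp5g1 was still at 15.83 to 18.61 FPKM in D0 and 27.4 to 28.9 in D7, and Atp5g2 at 110.2 to 127.5 and 160.7 to 170.7. Such non-overlap held for 37.6% of all genes tested. Their P8 pairs, part of the pooled spread, were at 29.2 and 14.05 and at 194.9 and 94.41 FPKM. Of Atp5g2's 50-base words, 36.7% also occur in transcripts of other genes. Atp5g3 made up 58.54 to 59.75% of the 3 genes' summed FPKM in D0, 69.39 to 69.89% in D7, 72.31 and 73.76% in D12 and 51.04% in pCEC, with no overlap between D0 and D7. Atp5b, the catalytic beta subunit, was the most abundant nuclear member in D0, at 927.4 to 964.9 FPKM, and had a log2 fold change of 0.48 (adjusted p = 0.00982). Atp5a1, its alpha partner, was listed at only 4.36 to 24.83 FPKM over all libraries, and rose in D7 (1.28 ± 0.35, adjusted p = 0.0178). Atp5o was listed at 1.13 to 13.56 under 1 Ensembl ID, of whose exons 47.9% overlap another gene, and at 0 under another ID.

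The 250 bases before the start of 4 genes are shown from RefSeq (GRCm38.p6). Cox6b2 is the nuclear gene that rose most and Cox6b1 is its partner, while Atp5k and Uqcrh are strong risers that hold a motif and were chosen after the matches were seen. Each is on the minus strand and is written 5′ to 3′ along the gene. They lie at chr7:4753095-4753344, chr7:30626115-30626364, chr5:108434400-108434649 and chr4:116075071-116075320. Capitals mark, in Atp5k, the letters searched for as the NRF1 motif and, in Uqcrh, the ETS motif CCGGAAGT.
Cox6b2: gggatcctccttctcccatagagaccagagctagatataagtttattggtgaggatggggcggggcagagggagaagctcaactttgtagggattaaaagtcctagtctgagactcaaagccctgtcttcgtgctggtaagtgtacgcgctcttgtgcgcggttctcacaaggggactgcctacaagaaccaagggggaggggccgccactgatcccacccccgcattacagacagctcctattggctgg
Cox6b1: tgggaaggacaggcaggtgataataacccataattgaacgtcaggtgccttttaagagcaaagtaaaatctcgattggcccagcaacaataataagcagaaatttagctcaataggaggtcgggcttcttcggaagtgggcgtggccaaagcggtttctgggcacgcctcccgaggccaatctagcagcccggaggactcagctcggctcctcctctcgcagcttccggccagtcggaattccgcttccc
Atp5k: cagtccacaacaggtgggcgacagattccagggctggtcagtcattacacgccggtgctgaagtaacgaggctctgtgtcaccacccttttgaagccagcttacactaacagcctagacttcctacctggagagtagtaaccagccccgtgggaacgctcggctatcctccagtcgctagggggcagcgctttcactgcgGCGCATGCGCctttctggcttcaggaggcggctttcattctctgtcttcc
Uqcrh: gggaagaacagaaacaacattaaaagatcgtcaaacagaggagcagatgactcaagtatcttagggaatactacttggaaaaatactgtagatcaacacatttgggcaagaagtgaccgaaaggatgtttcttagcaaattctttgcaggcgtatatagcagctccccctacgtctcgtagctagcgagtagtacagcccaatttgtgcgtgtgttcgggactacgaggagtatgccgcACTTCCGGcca
NRF1 (nuclear respiratory factor) and the ETS factor GABP are known regulators of respiratory chain genes. Motifs were searched on both strands in the 300 bases from 250 before to 50 after the start. The match in Atp5k starts 50 bases before the gene start and that in Uqcrh 11 bases before, where the capitals are the reverse complement of the ETS letters. Of the 94 nuclear members, 74 matched the promoter table. The NRF1 letters, given in capitals for Atp5k, which are their own reverse complement, stood in 7 of these (9.46%) and in 1.07% of the promoters of all 27025 genes in the table. They stood in 2 of 40 members that rose in D7 and in 4 of 30 that were tested and did not. The ETS letters stood in 5 of the 74 (6.76%, against 4.31% of all genes), in 4 of the 40 and in 0 of the 30. The letters AAGATGGCG, the core of a YY1 site, stood in 8 of the 74 (10.8%, against 1.64%), in 5 of the 40 and in 3 of the 30. The set of all genes was not matched to the members in expression or base content. Neither match shown overlaps another motif, and these letters are not in the windows of Cox6b2 and Cox6b1.

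The mitochondrial genome's genes rose alongside. Their FPKM for 7 genes, summed, went from 15100 to 15810 in D0 to 41780 to 42930 in D7, with 36200 and 36120 in D12, 16460 and 14410 for P1, 13960 and 12310 for P8 and 21210 for pCEC. Of these 7, 6 rose in D7. The complex I gene mt-Nd1 was at 2210, 2211 and 2023 FPKM in D0, 7925, 8132 and 8181 in D7, 7702 and 8447 in D12, 1973 and 2115 for P1, 2196 and 2212 for P8 and 1264 for pCEC. It rose by 1.91 ± 0.17 in D7 (adjusted p = 4.08e-05). Its P1 and P8 libraries overlapped those of D0.

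mt-Nd2 was at 1235, 1244 and 1188 FPKM in D0, 4458, 5019 and 5085 in D7, 4308 and 4109 in D12, 1375 and 1156 for P1, 1324 and 1066 for P8 and 555.8 for pCEC. mt-Nd4 was at 765.1, 798.1 and 736.9 in D0, 3403, 3567 and 3787 in D7, 2690 and 3217 in D12, 883.3 and 806.2 for P1, 743.8 and 652.3 for P8 and 684.2 for pCEC. These 2 complex I genes rose by 1.99 ± 0.16 (adjusted p = 2.45e-05) and 2.22 ± 0.14 (adjusted p = 6.67e-06) in D7. The libraries do not mark strand, so reads over mt-Nd6 can come from RNA of either strand. mt-Nd6 is the one protein-coding gene on the light strand. It was at 514.1, 518 and 440.3 FPKM in D0, 2364, 2367 and 2587 in D7, 1969 and 2365 in D12, 590.6 and 876.7 for P1, 539.6 and 336.4 for P8 and 480.6 for pCEC, and rose by 2.31 ± 0.22 in D7 (adjusted p = 5.93e-05). mt-Nd5 differed by less: it was at 1093, 1292 and 1264 FPKM in D0, 2427, 2482 and 2201 in D7, 2286 and 1706 in D12, 1240 and 1089 for P1, 809 and 805.9 for P8 and 1173 for pCEC. Its D7 difference of 0.96 ± 0.16 (adjusted p = 0.00163) is under the 2-fold limit.

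mt-Cytb, the cytochrome b of complex III, was at 3247, 3196 and 3070 FPKM in D0, 7953, 7970 and 7881 in D7, 5014 and 5293 in D12, 2449 and 2629 for P1, 2107 and 2000 for P8 and 1273 for pCEC. It rose in D7 (1.32 ± 0.17, adjusted p = 0.000338), and D12 lay between D0 and D7. mt-Co1, the catalytic subunit of cytochrome c oxidase, was at 6385, 6547 and 6374 FPKM in D0, 13250, 13390 and 12270 in D7, 12230 and 10990 in D12, 7950 and 5734 for P1, 6237 and 5235 for P8 and 15780 for pCEC. It rose in D7 (1.01 ± 0.25, adjusted p = 0.0113) and was highest in pCEC, where mt-Nd1, mt-Nd2 and mt-Cytb were at their lowest.

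**Figure D4:**
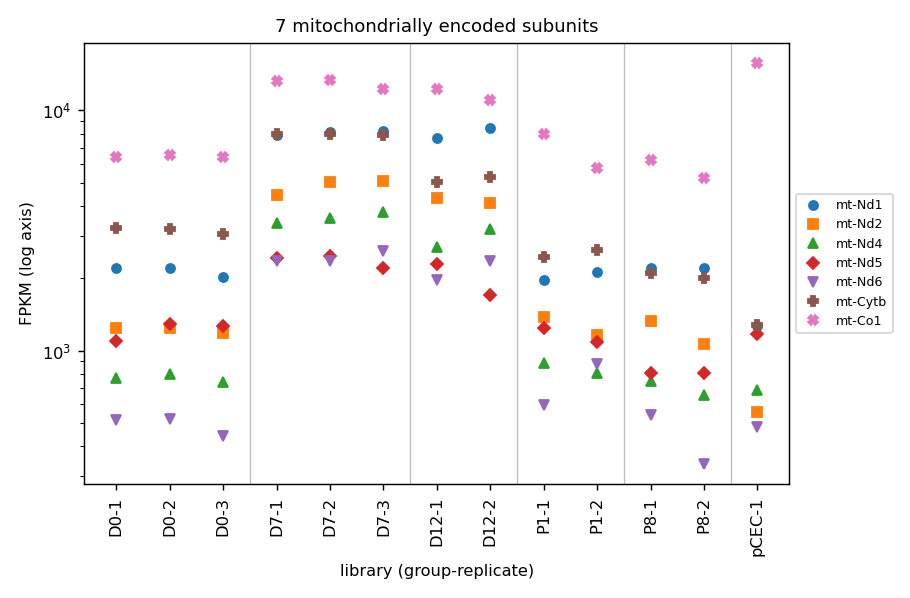
FPKM (log axis) of 7 mitochondrially encoded genes in each library; symbols stand for genes. In D7 and D12 each gene lies above its D0 values, and in pCEC mt-Co1 stands at 15780 while mt-Nd2 stands at 555.8.

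The other 6 mitochondrial genes could not be read as levels. mt-Nd3, mt-Nd4l, mt-Co2, mt-Co3 and mt-Atp6 share 98 to 100% of their 50-base words with transcripts of other genes, among them pseudogenes on chromosome 1, and mt-Atp8 is listed at 0 in 11 libraries. mt-Co2 was at 7.54, 7.67 and 6.94 FPKM in D0, 23.28, 22.79 and 24.8 in D7, 19.49 and 23.31 in D12, 9.84 and 238.9 for P1, 12.46 and 7.73 for P8 and 8.68 for pCEC. mt-Co3 was at 1.67 to 3.08 FPKM in D0, 35.48 to 38 in D7, 26.95 and 26.55 in D12, 5.7 and 240 for P1, 3.16 and 3.92 for P8 and 4.74 for pCEC, and mt-Atp6 was at 1.34 to 2.45, 6.96 to 16.74, 4.2 and 8.37, 4.29 and 188, 3.99 and 2.06, and 4.82 in the same order. P1 replicate 2 stood apart in all 6. mt-Nd3 was at 0.314 to 1.56 FPKM in D0, 3.72 to 5.06 in D7, 2.05 and 3.87 in D12, 26.73 in P1 replicate 2 and 1.04 to 2.77 in the others, while mt-Nd4l and mt-Atp8 were at 22.9 and 17.65 in P1 replicate 2 and at 1.46 or less elsewhere. The pseudogenes Gm28661 and Gm10925 were at 481.7 and 477.7 FPKM in P1 replicate 2 and at 39.75 or less elsewhere. Counts of members called include mt-Co3 in D7, and mt-Co3 and mt-Nd3 in P1 against D0. mt-Nd4 and mt-Co1 share 62.2 and 51.1% of their words in this way.

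The second comparison with the fibroblasts, D12 against D0, shares the D0 libraries with the first. In D12, 52 of 99 members rose and 0 fell, with 11.5% of all genes called higher and 11.6% lower, and a nuclear median log2 fold change of 1.15. Uqcr10 (2.16 ± 0.40, adjusted p = 0.00308), Atp5k (2.03 ± 0.42, adjusted p = 0.00508), Ndufb9 (2.02 ± 0.52, adjusted p = 0.014) and Uqcr11 (1.86 ± 0.43, adjusted p = 0.0089) rose among others. The D12 pair was uneven: 80 of 88 nuclear members were higher in replicate 2 than in replicate 1, by a median of 0.41 on the log2 scale. How many of all genes differed that way was not counted, so this is not a result about members alone. Both D12 libraries lay above every D0 library for 85 of the 99, against 37% of all genes. Without D12 replicate 2, which leaves 1 library in that group, the count was lower, and the share of all genes called in that fit was not counted. With the length trend removed the count was 24, all of them among the 52 that rose, where 21.3% of all genes were called in either direction. Counted in either direction, the members' share is near that of all genes, but shares of all genes by direction were not counted for that setting. Other genes under 700 nt had a median of 0.99 in this comparison, against 1.35 for 34 nuclear members.

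Between D7 and D12, 0 members were called, with 0.184% of all genes called. By limma, 3 members had an unadjusted p under 0.05, as did 805 of the 17406 genes tested. Voom called 0 members and 4 of 16428 genes. The nuclear median was 0.04 and that of the 7 readable mitochondrial genes -0.20. mt-Cytb was at 7881 to 7970 FPKM in D7 and at 5014 and 5293 in D12 without overlap, a log2 difference of -0.62 ± 0.19 with an adjusted p of 0.485.

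From D12 to P1, the labelled step from neural crest cells to corneal endothelial cells, 35 of 99 members fell and 1, Ndufa4l2, rose. Of all genes tested, 12.8% were called lower and 14.8% higher. Uqcrh went from 381.2 and 538.9 FPKM to 113.9 and 149.1 (-1.79 ± 0.35, adjusted p = 0.00402), and Ndufa13, a complex I subunit also known as GRIM-19, from 109.6 and 163.3 to 34.43 and 49.49 (-1.67 ± 0.25, adjusted p = 0.000981). The assembly factor Ndufaf5 went from 16.84 and 17.11 to 5.64 and 4.07 FPKM (-1.63 ± 0.19, adjusted p = 0.000264). Uqcr10, Uqcrq and Ndufa1 fell by 1.59, 1.54 and 1.51 on the log2 scale. Of the 7 readable mitochondrial genes 5 fell, among them mt-Nd1 (-1.98 ± 0.20, adjusted p = 0.000146). Sdhb fell (-1.38 ± 0.17, adjusted p = 0.000432), and Sdha did not pass the test (-0.04 ± 0.14).

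The median log2 difference from D12 to P1 was -0.89 over nuclear members and 0.11 over all genes, or 0.04 after TMM scaling. Other genes under 700 nt had a median of -0.81, against -1.04 for 34 nuclear members. With the length trend removed 23 members were called, 21 of them among the 36, where 27.2% of all genes were called in either direction. Counted in either direction, the members' share was then no higher than that of all genes. Shares of all genes by direction were not counted for that setting. The summed epithelial markers were at 3.95 and 6.00 FPKM in D12 and at 6861 and 9001 in P1, and their part in the fall was not tested. The count of members called was lower without D12 replicate 2 and higher without P1 replicate 2, each of which leaves 1 library in a group. In a fit of these 2 groups alone it was 11. The share of all genes called in these fits was not counted.

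P1 and D0 were close for most members: of 99, 4 rose (4.04%) and 3 fell (3.03%), where 11.1% of all genes were called higher and 8.47% lower. Cox6b2 and the assembly factors Ndufaf2 (-1.06 ± 0.17, adjusted p = 0.00246) and Ndufaf6 (-1.07 ± 0.27, adjusted p = 0.0177) fell, and Ndufa4l2, Atp5a1, mt-Co3 and mt-Nd3 rose. Ndufaf2 was at 12.03 to 12.86 FPKM in D0 and 6.01 and 5.04 in P1, without overlap. The count was not stable to leaving out either P1 library, which leaves 1 library in that group. The share of all genes called in those fits was not counted. Within the P1 pair, 20 of 88 nuclear members were at least 2-fold apart, and Ndufb9, for one, was at 7.93 and 38.91 FPKM. Differences of all genes within this pair were not counted.

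From P1 to P8, 0 members were called, with 1.11% of all genes called. By limma, 11 members had an unadjusted p under 0.05, as did 2713 of the 17406 genes tested. Voom called 0 members and 163 of 16428 genes. The fit held the unlike P8 libraries as 1 group, so 0 calls do not show that P8 and P1 are alike. Some members were called when P1 replicate 1 or P8 replicate 1 was left out, which leaves 1 library in a group. The share of all genes called in those fits was not counted. The P8 libraries differed from each other: P8 replicate 2 was higher than replicate 1 for 12 of 88 nuclear members, its median log2 difference was -0.68, and 29 members were at least 2-fold apart. Differences of all genes within the P8 pair were not counted either. Uqcr10 was at 211.7 and 74.81 FPKM in P8 replicates 1 and 2, and Cox8a at 577.5 and 189.7. The mitochondrial mt-Nd1 was at 2196 and 2212. Without P8 replicate 2 the count against P1 was 0.

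The primary cells gave 1 library, so their differences have no replicate check, and the part of its epithelial markers in them was not tested. Against D0, 8 of 99 members were at least 2-fold higher and 4 at least 2-fold lower, where 18.1% of all genes were higher and 14.9% lower by that much. Ndufa4l2 (log2 difference 3.82), Ndufa12 (1.54), mt-Co1 (1.29), Ndufa6 (1.20) and Uqcrc2 (1.03) were 5 of the higher, and Cox6b2 (-2.78), mt-Cytb (-1.32), Ndufa1 (-1.15) and mt-Nd2 (-1.14) were the lower. The other 3 of the higher were Ndufaf3 (1.14), mt-Atp6 (1.08) and Ndufaf8 (1.02). Against P1, 1 member (mt-Co1, 1.22) was higher and 12 were lower, with 5.79 and 7.63% of all genes. Of these 12, mt-Co3, mt-Atp6, mt-Co2, mt-Atp8, mt-Nd3 and mt-Nd4l are mitochondrial genes that could not be read as levels, and the rest are Ndufa4l2, Cox4i2, Uqcrc1, Ndufa1, mt-Nd2 and Atp5o. The count against P1 was 4 without P1 replicate 2 and 24 without P1 replicate 1. The nuclear medians were 0.20 against D0 and 0.02 against P1. Uqcrc2 was at 236.7 FPKM in pCEC and at 100.8 to 153.9 in all other libraries.

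Genes that serve the chain from outside the member list were counted in the same fit, in which 11.4% of all genes rose and 10.9% fell in D7. Of 76 genes tested that encode the mitochondrial ribosome, 18 rose and 0 fell, with a median log2 fold change of 0.73, and 19 rose in D12 (11.5% of all genes did) and 22 fell from D12 to P1 (12.8% did). That median lies between those of other genes under 700 nt (1.01) and from 700 to under 1200 nt (0.43). The largest rises in D7 were those of Mrps23 (2.02 ± 0.68, adjusted p = 0.041), which varied within D0 (3.04 ± 4.4 FPKM, SD, n = 3), Mrps18a (1.46), Mrps12 (1.44) and Mrpl28 (1.33). The shares called higher were 13.8% of assembly factors, 14.3% of electron carrier and coenzyme Q genes and 6.25% of TCA cycle genes, near or below that of all genes. Of 29 assembly factors outside the rule, 4 rose (Cox14, Cox19, Uqcc3 and Sdhaf4, by 1.13 to 1.20). Of 14 genes of electron carriers and coenzyme Q synthesis, Cyc1 (1.14) and Coq7 (1.24) rose and Coq8a (-1.12) fell. Of 16 genes of the TCA cycle and pyruvate dehydrogenase, Mdh2 alone was called, from 223 to 466 FPKM (1.06 ± 0.12, adjusted p = 0.000158). Of 6 antioxidant genes, Sod2 (1.44), Txn2 (1.28) and Prdx5 (1.17) rose, and of 6 carriers and pores tested, Slc25a5 (1.15), an ADP/ATP carrier, rose.

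Of 10 genes for mitochondrial transcription and replication, 0 rose in D7 and Polg, the mitochondrial DNA polymerase, fell from 26.5 to 8.87 FPKM (-1.48 ± 0.16, adjusted p = 0.000138). Polg was higher again in P1, at 22.1 FPKM against 8.52 in D12 (1.27 ± 0.20, adjusted p = 0.00119). Of 8 nuclear regulators, Esrra, a nuclear receptor that acts on respiratory chain genes, rose from 45.8 to 51.4 FPKM in D0 to 95.3 to 101 in D7 (1.02 ± 0.34, adjusted p = 0.0409). Pprc1, a coactivator related to PGC-1 alpha, fell from 52.6 to 54.6 FPKM to 24.7 to 27.6 (-1.03 ± 0.15, adjusted p = 0.00071). Ppargc1a, which encodes PGC-1 alpha, was at 0.0274 to 0.287 FPKM in D0, 1.56 to 1.68 in D7, 1.14 and 1.55 in D12, 4.38 and 0.888 for P1, 6.94 and 0.134 for P8 and 25.3 for pCEC, where it was highest. Nrf1 was at 16.7 to 19.7 FPKM in D0 and 12.7 to 15.3 in D7, and Gabpa at 32.9 to 38.7 and 16.8 to 19.1.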

How the data were processed

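Total RNA was sequenced after a kit that does not mark strand. The authors deposited FPKM values per gene, and per the submitters' processing notes the tools include Bowtie 0.12.2, and mm10 and mm8 stand there as builds. The counting step and annotation are not given in the sources used here. The deposited ID column matched the line order of the D0 columns alone. Values of other groups were re-placed from the slot order of a Python 2 dictionary of the IDs and a check that FPKM gave whole reads. That check used the gene's mean GENCODE M21 transcript length, or for 1338 genes a length fitted on D0. Lines were accepted on the probability of their placement. In each other group 80 to 187 genes were used on lines that were not whole. With D0 IDs hidden, 25415 of 25417 placed lines were right, and 99.04 to 99.48% of lines with reads were placed elsewhere. These placement settings were refined after that check and after unresolved members were seen.

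Values of log2(FPKM + 1) were fitted with limma 3.58.1 (R 4.3.3) over all 13 libraries with 1 mean per group, leaving 7 residual degrees of freedom. Each gene's spread was pooled over the groups with replicates, the unlike P8 pair among them. Genes had to reach 1 FPKM in 1 library and be resolved in every group. Comparisons with pCEC, a single library, were described only. The fit was tested on simulated data. The log2 fold change understates the change of low genes. Intervals on reads were not used; library totals limit the precision of low genes most in P1 replicate 2. Alternatives were the pseudocount, the filter, TMM scaling, rescaling over nuclear genes, voom on recovered reads, fits of 2 groups, a replicate block, no fold limit and leaving out each library.

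The members and lists were chosen with earlier results of these data known. Named genes are the mitochondrial genes, tissue isoforms with their partners, c ring and complex II genes, and up to 6 further called nuclear members per direction with the largest fold change. Other lists name up to 4 called genes per direction. Genes named for staying level or for low values, and Ndufs5, were picked after their values were seen, as were the length classes, their limit of 10 FPKM and the length trend. The motif letters were settled after a first search that held 1 further string, which was dropped. A word is a run of 50 bases in a gene's transcripts, and a shared word also occurs in a transcript of another gene. One marker gene is not reported here.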

Additional observations from a re-analysis of the deposited data

How the results depend on the processing

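No result changed direction past the threshold in any setting run. For P1 against D0, the count of members called was 2 with a pseudocount of 5, 3 with no filter, 2 under voom, 4 in a fit of 2 groups and 2 with the replicate block, against 7. For D12 against D7 a fit of 2 groups called 1. For P1 against D12 it called 11 and no fold limit gave 55, against 36. With the length trend removed the counts were 30, 24 and 23 for D7 against D0, D12 against D0 and P1 against D12. Of all genes, 20.7, 21.3 and 27.2% were called there in either direction. On 99 members, the latter 2 counts are near or below those shares, which were not split by direction. Leaving out 1 library at a time gave 43 to 60 for D7 against D0, 25 to 58 for D12 against D0, 0 in every case for D12 against D7, 13 to 52 for P1 against D12, 1 to 19 for P1 against D0, 0 to 12 for P8 against P1, 11 to 15 for pCEC against D0 and 4 to 24 for pCEC against P1. A library left alone in its group was assumed to vary like the other groups. The causes of these shifts were not tested. The share of all genes called in each of these fits was not counted, so the shifts are not results about the members alone. Correlations of deviations between same-numbered replicates ran from -0.234 to 0.177. Where both groups hold 2 libraries, both replicates give the same value by construction. Whether the numbers pair the libraries was not settled by these values. With the replicate block, 50 members were called in D7 against D0 and 33 in P1 against D12. Low genes are limited most by the 9997865 reads of P1 replicate 2.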
